A study of Mus musculus with 84 samples.

Results

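The regions described here were 39 stretches of the mouse genome, away from promoters, that carried peaks of both H3K4me1 and H3K27me3 in nuclei of epididymal adipocytes from chow-fed mice. They were chosen on measured values. The H3K4me1 peaks of all libraries were merged into 70778 regions, of which 26064 lay at least 2000 bp from every start site of a protein-coding gene and touched no H3K4me3 peak of any library. Among these 26064 distal regions, the 39 members had an H3K4me1 peak in 3 or more of 10 control libraries and an H3K27me3 peak in 3 or more of 10 control libraries. They lay on 15 chromosomes and had 37 nearest genes. The presence of either mark in control libraries therefore defined the members and is given below as a description only.

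The study asked whether adipocytes keep chromatin changes of obesity after weight loss. All groups were male AdipoERCre x NuTRAP mice given tamoxifen, so that a Cre recombinase driven by the adiponectin promoter labelled adipocyte nuclei for capture, and each library came from the nuclei of 1 epididymal fat depot (epiAT). In the 12-week cohort, C mice were 18 weeks old and on chow, H mice were 18 weeks old after 12 weeks of high-fat diet (HFD), CC_s mice were 26 weeks old and on chow, and HC mice were 26 weeks old with 12 weeks of HFD followed by 8 weeks of chow. In the 25-week cohort, CC_l mice were 31 weeks old and on chow, HH mice were 31 weeks old after 25 weeks of HFD, CCC mice were 39 weeks old and on chow, and HHC mice were 39 weeks old with 25 weeks of HFD followed by 8 weeks of chow. Per the paper, the chow given alongside HFD was a low-fat diet, and during the weight loss period HFD-fed and control mice alike received a different chow. Each group had 2 or 3 libraries of each mark, and C, CC_s, CC_l and CCC are called controls.

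H3K4me1 is laid down by the methyltransferases MLL3 and MLL4 and marks enhancers, whether or not they are in use. H3K27me3 is laid down by Polycomb repressive complex 2 and marks repressed genes and their surroundings, whereas H3K27ac marks active enhancers and promoters. Distal elements that carry H3K4me1 and H3K27me3 without H3K27ac are known from embryonic stem cells, where they are called poised enhancers. Peaks were measured in bulk nuclei, so 2 marks on the same nuclei and 2 marks on different nuclei of a depot cannot be told apart.

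The stretches with the most control peaks of both marks were poor in CpG dinucleotides, unlike the CpG islands at which Polycomb complexes are best known. The 5 sequences below are shown because they are the 300 bases under the most control peaks at 5 of the members with most control libraries marked, with every CG in capitals. They are printed 5′ to 3′ on the plus strand of GRCm38 from the RefSeq genome file.
Col27a1, chr4:63230139-63230438: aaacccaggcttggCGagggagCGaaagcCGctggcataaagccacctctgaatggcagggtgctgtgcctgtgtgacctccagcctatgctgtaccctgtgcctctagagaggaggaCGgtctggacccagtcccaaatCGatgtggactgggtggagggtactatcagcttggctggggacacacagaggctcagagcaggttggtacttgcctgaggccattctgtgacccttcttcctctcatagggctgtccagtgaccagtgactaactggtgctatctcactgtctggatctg
Shq1, chr6:100502975-100503274: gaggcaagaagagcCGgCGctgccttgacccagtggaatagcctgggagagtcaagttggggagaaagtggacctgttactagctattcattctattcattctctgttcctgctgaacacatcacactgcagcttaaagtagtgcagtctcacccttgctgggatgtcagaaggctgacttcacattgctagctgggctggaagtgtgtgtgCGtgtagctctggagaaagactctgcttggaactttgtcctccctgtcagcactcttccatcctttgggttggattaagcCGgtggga
Ccl1, chr11:82231583-82231882: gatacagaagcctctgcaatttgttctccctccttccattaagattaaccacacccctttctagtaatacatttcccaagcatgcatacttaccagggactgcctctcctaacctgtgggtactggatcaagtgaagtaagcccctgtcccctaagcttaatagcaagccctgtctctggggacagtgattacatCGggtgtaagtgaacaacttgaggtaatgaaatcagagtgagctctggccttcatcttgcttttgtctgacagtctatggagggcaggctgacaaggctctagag
Olfr545, chr7:102516014-102516313: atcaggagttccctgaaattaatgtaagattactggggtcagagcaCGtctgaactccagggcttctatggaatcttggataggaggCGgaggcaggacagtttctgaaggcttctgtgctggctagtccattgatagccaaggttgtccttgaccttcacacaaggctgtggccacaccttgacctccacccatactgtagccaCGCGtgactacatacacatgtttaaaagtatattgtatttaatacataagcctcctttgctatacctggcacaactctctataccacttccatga
Grb10, chr11:11978882-11979181: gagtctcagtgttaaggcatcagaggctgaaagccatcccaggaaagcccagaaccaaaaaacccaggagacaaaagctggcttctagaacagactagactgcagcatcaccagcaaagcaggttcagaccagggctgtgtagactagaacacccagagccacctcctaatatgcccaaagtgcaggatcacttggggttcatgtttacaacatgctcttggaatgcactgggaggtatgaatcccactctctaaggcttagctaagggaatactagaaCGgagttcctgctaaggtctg
Counts of libraries were taken at the central stretch and need not hold for all 300 bases. The Col27a1 window held 5 CG dinucleotides and lay under H3K4me1 peaks of 7 and H3K27me3 peaks of 6 control libraries. The Shq1 window held 4 and lay under 8 and 6. The Ccl1 window held 1 and lay under 5 and 8. The Olfr545 window held 4 and lay under 3 and 9. The Grb10 window held 1 and lay under 7 and 4.

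Co-occurrence of the marks was rare. Of 4081 distal regions with H3K4me1 in 3 or more control libraries, 0.956% also had H3K27me3 in 3 or more, whereas 5.76% of the 21983 distal regions with H3K4me1 in 2 or fewer control libraries did. The share fell from 6.53% of regions with H3K4me1 in no control library to 3.41% at 1 or 2 libraries, 1.03% at 3 to 5 and 0.808% at 6 to 10, although the median width rose from 1910 to 3262 bp. These shares use the values that chose the members and were not tested.

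Most members stood close to the thresholds. 18 of the 39 had H3K27me3 in exactly 3 control libraries and 3 in all 10, and 13 had H3K4me1 in exactly 3 and none in more than 8. Just outside the rule, 35 regions with enough H3K4me1 had H3K27me3 in 2 control libraries. Their median width was 3423 bp, against 2400 bp for the 18 members at 3 libraries, and their median G and C content was 49.7%, against 49.1%. Similarly, 30 regions with enough H3K27me3 had H3K4me1 in 2 control libraries, against 13 members at 3.

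The H3K4me1 of the members came mainly from the controls of the 25-week cohort. 34 members had H3K4me1 in 3 or more of the 4 CC_l and CCC libraries, whereas 8 had it in 3 or more of the 6 C and CC_s libraries. In single libraries, 24 and 37 members were marked in CC_l, 26 and 39 in CCC, 11, 4 and 7 in C, and 3, 8 and 20 in CC_s. The H3K4me1 lists of CC_l and CCC also covered more of the genome, with 71.1 to 122 Mb against 18 to 61.1 Mb in C and CC_s. Cohort, age and breadth of the lists moved together here and cannot be told apart. Leaving out CC_l replicate 1 reduced the members from 39 to 19, leaving out CC_l replicate 2 to 20 and leaving out CCC replicate 3 to 24.

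The H3K4me1 peaks of the members were low. Within each library, the median of the highest coverage at the marked members was below the median over all peaks of that library in 19 of 22 H3K4me1 libraries. For H3K27me3 this held in 2 of 20 libraries. The median of this ratio over libraries was 0.833 for H3K4me1 and 1.11 for H3K27me3.

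Libraries of different marks with the same group and replicate number in their titles were taken as 1 animal, since the study assayed several modalities from 1 depot. The labels do not state this for single libraries, and every count by animal rests on it. On this reading, 10 control animals and 10 animals of the diet groups (H, HC, HH and HHC) had both libraries. 36 of the 39 members had both marks in at least 1 control animal and 17 in at least 3, and at 33 members a control animal had base pairs under both peaks. At Gm17455, Syt2 and Kcnip1 no control animal had both marks, so these members met the rule through different animals.

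The locus with most members was Col27a1, the gene of a fibrillar collagen, which spans chr4:63214004-63334991. It held 10 distal regions. 4 of them had H3K4me1 in 3 or more control libraries, and all 4 were members. They lay at 63228342-63235715, 63248314-63250273, 63255718-63259845 and 63309502-63312143, and the nearest start site of the last was that of Orm1, which encodes an acute-phase plasma protein.

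The first Col27a1 region, 7374 bp wide and overlapping an exon, had the most control libraries marked of all members, with H3K4me1 in 7 and H3K27me3 in 10. H3K27me3 peaks covered 31.1, 41.1 and 25.7% of it in C, 51.7, 63 and 54.1% in CC_s, 70.2 and 92.8% in CC_l, and 60.6 and 69% in CCC. Among the diet groups they covered 5.41 and 0% of it in the H libraries and 30.1, 6.27 and 0% in the HC libraries. The HH libraries had 55.1 and 58.2% and the HHC libraries 22.4, 54 and 0%. Every H library lay below every C library and both HH libraries below both CC_l libraries, and 6 of 10 animals of the diet groups had both marks. H3K4me1 was present in 9 of the 12 diet libraries, with 19.7, 59.9 and 76.4% covered in HHC against 16.4 and 41% in CCC. H3K27ac was found in 1 HHC library only.

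The second Col27a1 region, in an intron, had H3K4me1 in 4 and H3K27me3 in 9 control libraries. It had H3K4me1 in no diet library. Its H3K27me3 peaks covered 97.9 and 65.6% of it in HH and none of it in the 3 HHC libraries. The third region had H3K27me3 in 8 control and 5 diet libraries. The fourth, the Orm1 region, had it in 4 and 1.

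Over the whole gene, H3K27me3 peaks covered 37.8% ± 6.32 (SD, n = 3) of Col27a1 in C and 2.62% ± 2.31 (n = 2) in H, 50.4% ± 5.83 (n = 3) in CC_s and 8.65% ± 7.61 (n = 3) in HC, 60.1% ± 6.64 (n = 2) in CC_l and 41.8% ± 0.638 (n = 2) in HH, and 59.9% ± 1.5 (n = 2) in CCC and 21.3% ± 7.5 (n = 3) in HHC. In each of these 4 pairs the libraries of the diet group lay below all libraries of the controls of the same age. The lists of H and HC covered 8.52 to 36.3 Mb of the genome, against 43 to 64.1 Mb in C and CC_s. Those of HH covered 50.1 to 101 Mb, against 69.2 to 110 Mb in CC_l, and those of HHC 77.9 to 82.8 Mb, against 61.4 to 70.4 Mb in CCC. Breadth of the lists thus moved with the values in H and HC, overlapped between HH and CC_l and moved the other way in HHC, and its part in the values was not tested. The gene was singled out after its values were seen and was rich in members because of its control peaks, so no test was made.

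**Figure D1:**
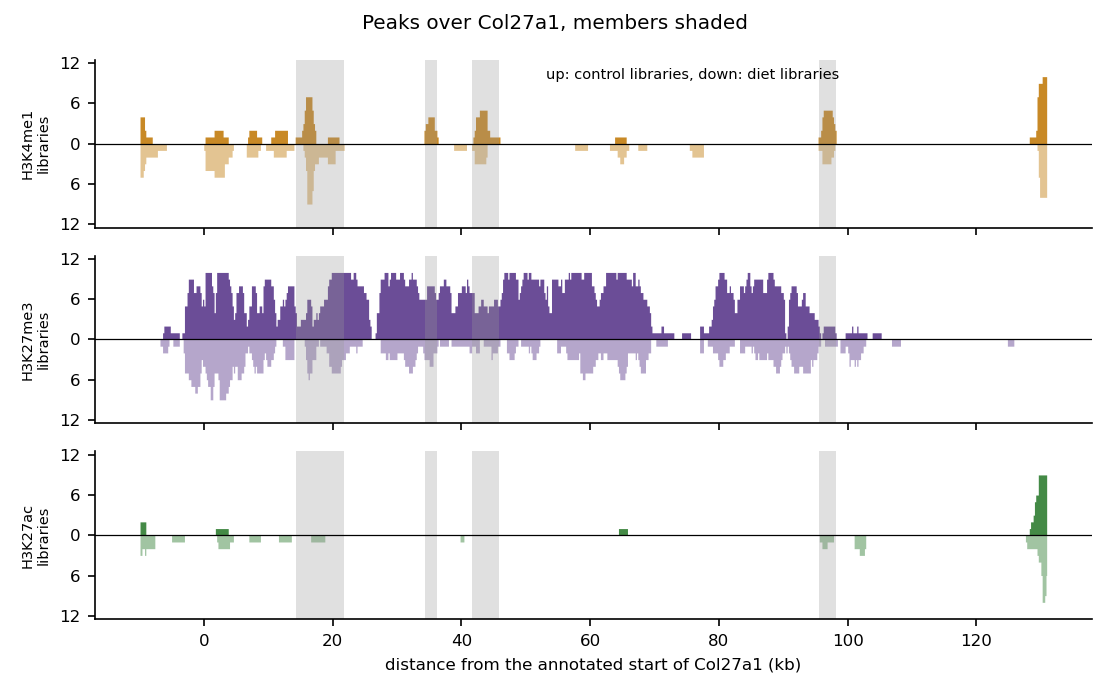
Number of libraries with a peak in 200 bp steps along Col27a1, by distance from its annotated start in kb, for each mark, with control libraries above the line and diet libraries below it (10 and 12 for H3K4me1, 10 and 10 for H3K27me3, 9 and 12 for H3K27ac). The 4 members are shaded. H3K4me1 forms narrow peaks at the members. All but the fourth member lie within a broad, interrupted stretch of H3K27me3 that is carried by more control than diet libraries. At the fourth, no step has H3K27me3 in more than 2 control libraries.

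Next in order stood a region of 7568 bp at chr6:100499339-100506906, 164233 bp from the nearest start site, that of Shq1, an assembly factor of small nucleolar ribonucleoproteins. It had H3K4me1 in 8 and H3K27me3 in 8 control libraries. H3K4me1 was present in all 12 diet libraries, the most of any member. H3K27me3 peaks covered 39.3, 49.4 and 39.9% of it in C and none of it in both H libraries. They covered 80.5 and 66.5% in CC_l, 82.1 and 0.0529% in HH, 0 and 58.5% in CCC, and 33.5, 0 and 10.2% in HHC. The C and H libraries did not overlap, whereas the libraries of the 25-week groups did.

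The region in an intron of Ntsr1, a neurotensin receptor gene, had each mark in 8 control libraries and H3K27ac in no library. The Ddx1 region, 126607 bp from the start of this RNA helicase gene, had H3K27me3 in all 10 control libraries and H3K4me1 in 3. Its H3K27me3 peaks covered 12.4, 21.6 and 21.7% in C, 9.85, 27.7 and 3.93% in CC_s and none of it in the 5 H and HC libraries. In HH they covered 24.3 and 27.4%, against 36.9 and 19.6% in CC_l. H3K27me3 was thus absent from all 5 diet libraries of the 12-week cohort and from 2 of the 3 HHC libraries, and present in both HH libraries.

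The Olfr545 region, beside an olfactory receptor gene, also had H3K27me3 in all 10 control libraries, in no H library, in 1 of 3 HC libraries and in every HH library. The Ccl1 region lay in an intron of the annotated model of this chemokine gene, with H3K27me3 in 9 and H3K4me1 in 5 control libraries. It had H3K4me1 in 1 diet library, an HHC library. At the Fbln2 region, which overlaps an exon of this extracellular matrix gene, H3K27me3 was found in 8 control and 4 diet libraries and H3K27ac in 2 of 3 HHC libraries and 1 CCC library.

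The region in Grb10, an imprinted gene for an adaptor of the insulin receptor, had H3K4me1 in 7 and H3K27me3 in 4 control libraries, and 3 of these 4 were the C libraries with 43.7, 49.2 and 68.4% covered. Its H3K4me1 was absent from the 6 H and HH libraries. The region in Ntrk3, the neurotrophin-3 receptor gene, had H3K4me1 in 7 control libraries and 1 diet library, and H3K27me3 in 3 control libraries and in all 3 HHC libraries, with 13, 73.6 and 55.7% covered. The Dio3 region lay 14928 bp from the start of this gene, whose enzyme inactivates thyroid hormones. It had H3K4me1 in 6 control libraries and in none of the 12 diet libraries. The Sfrp2 region lay 9032 bp from the start of this secreted Wnt antagonist gene. It had H3K4me1 in 5 control and no diet libraries, and H3K27me3 in 3 control and 5 diet libraries.

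Others among the first 12 were nearest to Ppp2r2c, a regulatory subunit of protein phosphatase 2A, Nphp4, a protein of primary cilia, and Prok2, a secreted prokineticin. H3K27me3 was present in 7 control and 2 diet libraries at Ppp2r2c, in 4 and 1 at Nphp4 and in 4 and 6 at Prok2. The largest rises in the share of H3K27me3 libraries from controls to diet groups in both cohorts were at Pard3, Syt2, Stx18, Enpp7 and Cnpy1. They were Pard3 with 3 control and 8 diet libraries, Syt2 with 3 and 8, Stx18 with 4 and 8, Enpp7 with 3 and 8 and Cnpy1 with 3 and 7. Since a member needed only 3 control libraries, these counts describe the regions and carry no test.

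The remaining members were nearest to Cacna1e, Snph, Rhbg, Gabbr2, Vwa5b1, Slc6a12, Prmt8, Frem3, Rnf146, Bves, Gm17455, Kcnip1, Tmem132e, Tmem260, Ifnar2, Lrfn2 and Cndp1. Each of these 17 had H3K4me1 in 3 to 6 control libraries and H3K27me3 in 3 to 7. The Gabbr2 region, in the gene of a subunit of the GABA-B receptor, had H3K4me1 in all 3 H libraries and in no C library. 5 of its 10 diet animals had both marks, against 2 control animals.

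By nearest gene, 4 members fell in the list of channels, receptors and adhesion genes of neurons. They were Cacna1e, a calcium channel subunit, Lrfn2, a synaptic adhesion protein, Syt2, a calcium sensor of synaptic vesicles, and Kcnip1, a potassium channel partner. This was 10.3% of members, beside 2.12% of all distal regions, 3.1% of distal regions with H3K4me1 but neither other mark in controls, and 3.39% of those with H3K27ac. All 4 had H3K27me3 in 3 control libraries, the fewest that the rule allows. At Syt2 and Kcnip1 no control animal had both marks, and Lrfn2 had H3K27ac in 4 of 9 control libraries. The contrast was not tested. 1 member, Sfrp2, was nearest to one of the morphogens and their receptors, 2.56% beside 1.78% of all distal regions. No member was nearest to a gene of the lists of developmental transcription factors (2.56% of all distal regions), adipocyte genes (0.38%) or inflammation and matrix genes (0.564%). The last list holds 56 chosen genes and lacks Col27a1, Fbln2, Ccl1 and Orm1, so its 0 does not mean that no member was near a matrix or inflammation gene. No member was nearest to a marker of adipocytes or of the 8 other cell types examined, which were nearest to 0.0115 to 0.207% of all distal regions per list, too few for a 0 among 39 to be read.

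The members lay among further H3K27me3. Within 50000 bp on either side and outside the region, peaks of any control library covered a median of 50.9 kb (range 4.58 to 95.8 kb). The median was 1.9 kb for all distal regions, 0 kb for the 1151 distal regions with H3K4me1 and H3K27ac in 3 or more control libraries and no H3K27me3, and 0.913 kb for the 1324 with H3K4me1 and neither H3K27ac nor H3K27me3. At 33 members a control H3K27me3 peak ran beyond the edge of the region, and at 1, Syt2, such a peak reached the promoter of a gene. The promoter of the nearest gene had H3K27me3 in 3 or more control libraries for 27 members (69.2%), beside 24.6% of all distal regions. It had H3K4me3 in 3 or more for 23 members (59%), beside 81.9%, and both for 14 (35.9%), beside 17.2%. The H3K27me3 values come from the same libraries that chose the members and carry no test.

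**Figure D2:**
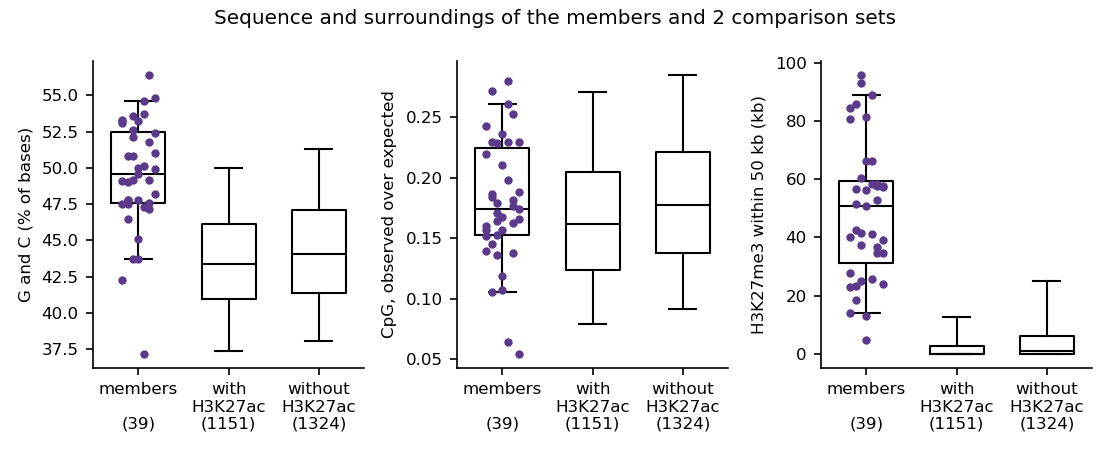
G and C content, CpG observed over expected, and H3K27me3 of any control library within 50 kb on either side, for the 39 members (points over a box) and for distal regions with H3K4me1 and no H3K27me3 in controls, with or without H3K27ac. Boxes show quartiles and medians, and whiskers the 5th and 95th percentiles. The median G and C content is 49.6% for members and 43.4 and 44.1% for the other sets.

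In sequence, the members were rich in G and C but not in CpG. Their median G and C content was 49.6% (quartiles 47.6 and 52.5%), beside 45.1% for all distal regions, 43.4% for the set with H3K27ac and 44.1% for the set without. CpG dinucleotides were found at 0.174 of the number expected from base content, beside 0.179, 0.162 and 0.178. Repeats soft-masked in the genome file made up a median of 11.9% of bases, beside 17.9% of all distal regions. The median width was 2858 bp (range 1216 to 8193 bp), beside 2067 bp. The median distance to the nearest start site was 32879 bp, beside 37138 bp, and 22 members (56.4%) overlapped a protein-coding gene, 6 of them an exon.

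Short motifs were searched on both strands of the central 300 bases. CACCTG, an E-box, was found in 10 members (25.6%) and 17.6% of all distal regions, and AGGTCA, bound by nuclear receptors, in 9 (23.1%) and 21%. TTGCNNAA, the C/EBP motif, was found in 7 (17.9%) and 14.6%. The motif AGATAA, which transcription factors of the zinc finger family with Gata2 and Gata3 bind, was found in 6 (15.4%) and 16.4%. TGANTCA, the motif of AP-1, was found in 4 (10.3%) and 10.9%. The homeodomain motif TAATTA was found in 3 (7.69%) and 7.53%. Matches of different motifs could overlap, and the counts are descriptions.

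In the diet groups, H3K4me1 was found at fewer members than in controls. The H libraries had 6, 3 and 3 members marked, the HC libraries 6, 7 and 3, the HH libraries 5, 12 and 18, and the HHC libraries 6, 25 and 9. The mean share of members was 10.3% ± 4.44 in H (SD, n = 3) against 18.8% ± 9 in C (n = 3), 13.7% ± 5.34 in HC (n = 3) against 26.5% ± 22.4 in CC_s (n = 3), 29.9% ± 16.7 in HH (n = 3) against 78.2% ± 23.6 in CC_l (n = 2), and 34.2% ± 26.2 in HHC (n = 3) against 83.3% ± 23.6 in CCC (n = 2). Every HH library lay below both CC_l libraries and every HHC library below both CCC libraries, the nearest with 25 against 26 members, whereas the groups of the 12-week cohort overlapped their controls. Across all distal regions the HH share was 17.7% against 19.3% in CC_l and the HHC share 24.6% against 17.4% in CCC. A lower share outside the control libraries is built into the rule, and the 2 comparison sets, also chosen on control H3K4me1, fell likewise from 87.4 to 36.8% and from 73.3 to 35.2% between CC_l and HH.

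The choice of members could be separated from their measurement across cohorts. 87 distal regions had each mark in 2 or more control libraries of the 25-week cohort, 31 of them members. In the 12-week cohort, H3K4me1 was found at 13.8% ± 5.27 of them in C, 10.7% ± 4.35 in H, 18.8% ± 15 in CC_s and 9.96% ± 2.89 in HC (SD, n = 3 each). 9 regions, all members, were chosen in the same way on the 12-week cohort. In the 25-week cohort, H3K4me1 was found at 88.9% ± 15.7 of them in CC_l (n = 2), 44.4% ± 22.2 in HH (n = 3), 83.3% ± 23.6 in CCC (n = 2) and 44.4% ± 22.2 in HHC (n = 3). The mean H3K4me1 share was thus lower in the diet groups of both cohorts. In the 12-week cohort the differences were smaller than the SD between libraries of at least 1 of the groups compared. No regions chosen on control H3K4me1 alone were measured across cohorts, so the lower means cannot be read as particular to regions with both marks. H3K27me3 at the 87 regions was found at 25.3% ± 5.27 in C (n = 3), 18.4% ± 1.63 in H (n = 2), 30.3% ± 3.69 in CC_s (n = 3) and 27.6% ± 11.3 in HC (n = 3). At the 9 regions it was 66.7% in both CC_l and HH (n = 2 each), 38.9% ± 7.86 in CCC (n = 2) and 44.4% ± 11.1 in HHC (n = 3). Obesity minus control was then -6.9 points in the 12-week and 0 points in the 25-week cohort.

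**Figure D3:**
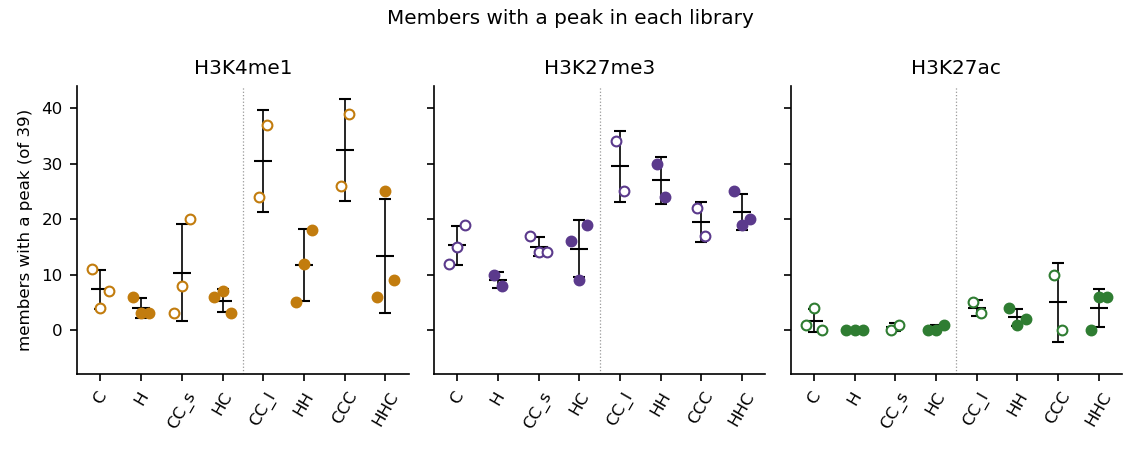
Number of the 39 members with a peak in each library (points; open for controls, filled for diet groups), with the group mean and SD, for H3K4me1, H3K27me3 and H3K27ac. The dotted line separates the cohorts. H3K4me1 ranges from 24 to 39 members in CC_l and CCC, from 3 to 20 in C and CC_s and from 3 to 25 in the diet groups. H3K27ac stays at 10 or fewer.

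Counted region by region, H3K4me1 was lost at 11 members in HH against CC_l, meaning that it was present in every library of CC_l and in none of HH. The same held for 3.42% of all 26064 distal regions. 10 members lost it in HHC against CCC, where the share of all distal regions was 2.19%. Prmt8, Dio3 and Sfrp2 were lost in both. 1 member, Gabbr2, gained H3K4me1 in H against C, with 0.441% of all distal regions. The rule used these controls, and nothing is read from the counts.

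For H3K27me3, obesity minus control was -16.2 percentage points of members in the 12-week cohort and -6.41 in the 25-week cohort. Weight loss minus control was -0.855 and 4.7 points. Weight loss minus obesity went in opposite directions, with 14.5 points in the 12-week and -14.5 in the 25-week cohort. The H libraries had 10 and 8 members marked against 12, 15 and 19 for C, and the HC libraries 16, 9 and 19 against 17, 14 and 14 for CC_s. The HH libraries had 30 and 24 against 34 and 25 for CC_l, and the HHC libraries 25, 19 and 20 against 22 and 17 for CCC. Only the H libraries lay below all libraries of their controls, at 23.1% ± 3.63 of members (SD, n = 2) against 39.3% ± 9 in C (n = 3). Across all distal regions H had 2.32% and C 3.17%. Control H3K27me3 helped to choose the members, so a lower share in a diet group is partly built into the rule. No member was without H3K27me3 in the diet libraries. It was found in 3 or more of 10 at 31 members (79.5%), beside 5.67% of all distal regions. In the surroundings of the members, 50000 bp on either side, H3K27me3 peaks covered 20% ± 1.69 in C, 3.96% ± 0.627 in H, 17.6% ± 1.66 in CC_s, 6.15% ± 3.89 in HC, 28.4% ± 6.05 in CC_l, 22.3% ± 9.27 in HH, 21.9% ± 0.0421 in CCC and 19.3% ± 1.63 in HHC. Around all distal regions the same values were 1.99, 0.732, 1.89, 0.956, 3.64, 3.38, 2.58 and 3.64%. The H3K27me3 lists of H and HC covered 8.52 to 36.3 Mb of the genome, against 43 to 64.1 Mb in C and CC_s. The part of this breadth in the values was not tested.

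H3K27me3 was lost in H against C at 4 members, the Ntsr1, Shq1, Olfr545 and Ddx1 regions (0.645% of all distal regions), and gained at Cnpy1 (0.123%). It was lost in HC against CC_s at Ddx1 (0.395%) and gained at Tmem260 (0.0192%). In HH against CC_l it was lost at Cacna1e and Lrfn2 (0.518%). In HHC against CCC it was lost at the second Col27a1 region and Tmem132e (0.476%) and gained at Stx18, Ntrk3 and Bves (0.353%). The rule used these controls as well.

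Weight loss could be compared with obesity without the control libraries that chose the members. H3K4me1 was in every library of one group and in none of the other at no member in HC against H, where 0.223% of all distal regions were, and at no member in HHC against HH, where 0.388% were. H3K27me3 was gained at Tmem260 in HC against H (0.0384%) and at Cnpy1 in HHC against HH (0.146%), and was lost at the second Col27a1 region and Tmem132e in HHC against HH (0.326%). At Cnpy1 the peaks covered 79.2, 56.1 and 100% of the region in HHC and none of it in HH. At Tmem132e they covered none of it in HHC and 40 and 38.4% in HH. At the second Col27a1 region they covered none of it in HHC and 97.9 and 65.6% in HH, whereas in the 12-week cohort they covered 61.4, 48.4 and 0% in HC and none of it in H. Cnpy1 and Tmem132e did not separate the groups in the 12-week cohort, where Cnpy1 was covered by 7.17, 0 and 49.7% in HC and 34.1 and 36.8% in H, and Tmem132e by 22, 18.7 and 0% and by 12.4 and 0%.

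The share of each region under peaks was tested across all distal regions with an exact permutation test within cohorts, two-sided, and Benjamini-Hochberg adjustment. For weight loss minus obesity, no region passed an adjusted p of 0.05 for H3K4me1 (0 of 22686, 0% called) or H3K27me3 (0 of 5066, 0% called). At an unadjusted p under 0.05 stood 33 and 14 regions, and no member. The smallest p that the design allows was 0.005 for H3K4me1 and 0.01 for H3K27me3, so that no region could pass the adjustment on its own. The median difference over the 32 members with any H3K4me1 in these libraries was 4.92 percentage points, beside 11.2 over all regions tested, and over the 39 members with H3K27me3 it was -2.37, beside 2.56. At Cnpy1 the H3K27me3 difference, averaged over both cohorts, was 31 points (exact permutation p = 0.21, adjusted p = 1).

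H3K27ac was found in 1 or more control libraries at 13 members (33.3%), beside 18.2% of all distal regions. Most distal regions had no H3K4me1 in controls. H3K27ac was found in no control library at 26 of the 39 members and in no library at all at 18. By comparison, 3882 distal regions had H3K4me1 in 3 or more control libraries and no H3K27me3 in controls. Of these, 1324 had H3K27ac in no control library, a smaller share than among the members. This contrast was not tested. The C libraries had 1, 4 and 0 members marked and the H libraries 0 each, the CC_s libraries 0 and 1 and the HC libraries 0, 0 and 1. The CC_l libraries had 5 and 3 and the HH libraries 4, 1 and 2, the CCC libraries 10 and 0 and the HHC libraries 0, 6 and 6. Each diet group overlapped its controls. The mean share of members lay above that of all distal regions in C (4.27 against 2.96%), CC_l (10.3 against 8.82%) and CCC (12.8 against 5.79%). It lay below in CC_s (1.28 against 1.69%) and in the diet groups, with 0 against 2.15% in H, 0.855 against 3.33% in HC, 5.98 against 9.63% in HH and 10.3 against 12.1% in HHC. The choice of members on H3K4me1 of the controls bears on this contrast, and its part was not tested. The means ranged from 0% in H to 12.8% ± 18.1 in CCC (SD, n = 2), beside 57.4% ± 43.1 in CCC of the set chosen for H3K27ac.

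2 members, Grb10 and Lrfn2, had H3K27ac in both CC_l libraries and in no HH library, with 1.58% of all distal regions. At Grb10 the peaks covered 55.2 and 53.1% of the region in CC_l. They covered 0, 36 and 0% in C, and none of it in the H and HH libraries. The difference of obesity minus control over both cohorts was -33.1 points (exact permutation p = 0.05, adjusted p = 1). Gabbr2 had H3K27ac in 2 of 3 HH libraries and in no control library.

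In the tests across regions, no region passed for H3K27ac in obesity minus control (0 of 8360, 0% called) or weight loss minus control (0 of 9844, 0% called). At an unadjusted p under 0.05 stood 199 and 69 regions, none of them a member. 13 and 17 members had any H3K27ac in the libraries compared and entered these tests. Their median differences were -8.17 and -1.92 points, beside 5.12 and 8.59 over all regions tested. Since the members were chosen on H3K4me1 of control libraries and the other regions were not, these medians are not on equal terms.

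How often both marks met in 1 animal was measured over all distal regions, as the percent of an animal's distal H3K4me1 regions that also had H3K27me3. No difference between diet and control groups passed the test after adjustment. The share was 0.592, 0.0979 and 0.701% in C and 1.7 and 1.36% in H, and 0.17, 0.335 and 0.321% in CC_s and 0.983, 1.54 and 2.94% in HC. It was 5.5 and 1.45% in CC_l and 5.64 and 2.23% in HH, and 2.13 and 1.22% in CCC and 6.75, 3.49 and 8.35% in HHC. The weight loss groups lay above their controls in 6 of 6 animals. The H animals lay above C, and the HH and CC_l animals overlapped.

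**Figure D4:**
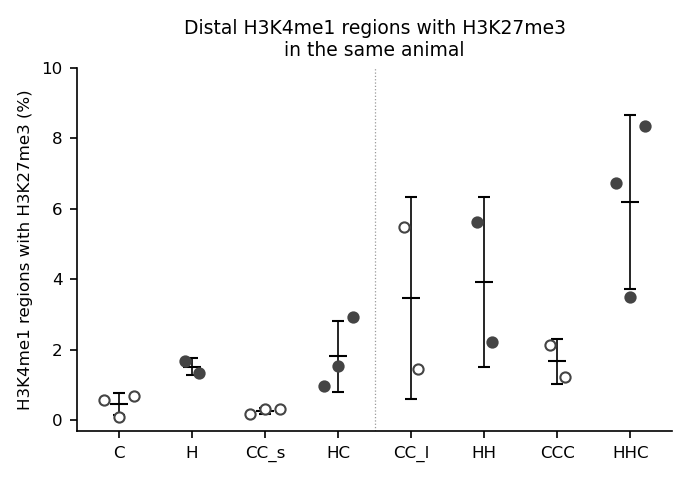
Percent of the distal regions with an H3K4me1 peak in an animal that also had an H3K27me3 peak in that animal, for each of 20 animals (points; open for controls, filled for diet groups), with the group mean and SD. HC lies at 0.983% to 2.94% above CC_s at 0.17% to 0.335%, and HHC at 3.49% to 8.35% above CCC at 1.22% to 2.13%.

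Averaged over the cohorts, weight loss exceeded control by 3.03 percentage points (1.54 and 4.52 in the 12- and 25-week cohorts). The exact permutation test within cohorts, two-sided, gave p = 0.025 and an adjusted p = 0.075 over 3 comparisons. Obesity exceeded control by 0.764 points (1.07 and 0.457, exact permutation p = 0.35, adjusted p = 0.35), and weight loss exceeded obesity by 1.27 points (0.285 and 2.26, exact permutation p = 0.31, adjusted p = 0.35). None of the 3 passed at 0.05 after adjustment. Obesity minus control rested on single animals, with -0.248 points without CC_l replicate 2 and -0.0883 points without HH replicate 2. Weight loss minus control also did not pass under 27 of 30 alternatives (exact permutation, adjusted p up to 0.225). It was 3.26 points without CCC replicate 1 (exact permutation p = 0.0125, adjusted p = 0.0375). With all libraries of a mark reduced to an equal number of peaks, weight loss minus control was 2.34 points (exact permutation p = 0.025, adjusted p = 0.0375) and obesity minus control 1.9 points (exact permutation p = 0.0167, adjusted p = 0.0375). The distal regions with H3K27me3 numbered 1794, 1320 and 1979 in HHC and 1435 and 1134 in CCC. They numbered 621, 450 and 1065 in HC and 720, 968 and 929 in CC_s. Their part in the share was not tested.

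By median H3K27ac, markers of macrophages, endothelial cells and progenitors rose in the diet groups. The medians of the other cell types examined did not, although single diet libraries had more lymphocyte markers than any control library. Of 12 macrophage markers, a median of 1 had H3K27ac at the promoter in control libraries (range 0 to 4), 5.5 in obese libraries (0 to 8) and 2.5 after weight loss (0 to 10). The 12 adipocyte markers had it at 12 promoters in every control library and at a median of 12 in the other groups, with 8 as the lowest. For 10 endothelial markers the medians were 0 in control, 2.5 in obese and 3 in weight loss libraries. In the same order they were 1, 1 and 1 of 10 lymphocyte markers, 1, 2.5 and 4 of 10 progenitor markers, 4, 3.5 and 4 of 8 mural markers, 0 throughout for 8 mesothelial and for 8 epithelial markers and 2, 1 and 1 of 8 markers of neurons and glia. The H3K27ac range for lymphocyte markers was 0 to 1 in control, 0 to 3 in obese and 0 to 10 in weight loss libraries. By H3K4me3 the medians were 1.5, 9 and 6 for macrophage, 3, 9 and 6 for endothelial and 1, 2 and 4 for lymphocyte markers. They were 7, 7 and 6.5 for progenitor, 4, 4 and 6 for mural, 2, 0 and 1.5 for mesothelial and 2.5, 0 and 2 for epithelial markers. However, 4 H3K4me3 libraries of CC_l, HH and CCC had another group in their treatment field, which would move them between control and obese. The part of these cell types in the values above was not tested.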

How the data were processed

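The authors profiled histone marks in captured adipocyte nuclei by CUT&Tag, which cuts and tags DNA at antibody-bound chromatin. Per the labels and methods of the study, reads were trimmed (Trim Galore 0.6.6), aligned (Bowtie2 2.4.4) to mm10 (GRCm38), summarised as coverage (SAMtools 1.13, bedtools 2.30) and called as peaks with SEACR 1.3 (stringent), library by library and without pooling. The deposited lists give the position of each peak, its total signal and its highest coverage. These signal values were whole numbers in 84 of 84 libraries, were taken as unscaled, and were compared only within a library. The depth of each library is not given in the sources used here. Lists held 14484 to 40681 H3K4me1, 21807 to 46396 H3K27me3 and 12173 to 41988 H3K27ac peaks, covering 16.2 to 133, 8.52 to 110 and 9.58 to 109 Mb. Their number limits what a missing peak means. A region counted as marked when a peak overlapped it by 1 bp or more.

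Groups were taken from sample titles. 4 of 21 H3K4me3 libraries carried another group in their treatment field, which bears on promoter values and on the alternative that used H3K4me3 of control libraries, and not on the members, since H3K4me3 of any library left a region out. Start sites were those of protein-coding transcripts of 21851 protein-coding genes in the GENCODE basic annotation of GRCm38. Gained and lost mean present in every library of one group and in none of the other. Tests were exact permutations of libraries within a cohort, with the difference averaged over cohorts, and with Benjamini-Hochberg adjustment. They were tested on simulated data. Replicates came from separate animals, libraries of a group were not alike (highest Jaccard index of covered bases 0.626), and 96 mitochondrial peaks were left out. Named regions were the 12 with most control libraries marked (1 per nearest gene), those whose share of libraries with a mark differed most and in 1 direction in both cohorts between diet groups and controls, members gained or lost between weight loss and obesity, and examples of lists. Gabbr2, Sfrp2 in H3K27me3 and the Col27a1 gene body were added after their values were seen. The members and lists were chosen with earlier results of these data known. Python 3.11.15, numpy 2.4.6, pandas 2.3.3 and pysam 0.24.0 were used.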

Additional observations from a re-analysis of the deposited data

How the results depend on the processing

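The number of members depended on the thresholds. It was 119 with 2 or more control libraries for each mark, 5 with 5 or more, 20 when peaks had to cover 25% of a region, 10 with the stricter 50% of the peaks by total signal and 69 when only H3K4me3 of control libraries excluded regions, and 19 to 39 when 1 animal was left out. The difference in the share of members with H3K27me3, -11.3 points for obesity minus control, was -33.3, -25 and -26.7 with 5 or more libraries, 25% coverage and the stricter 50%, and -3.45 with regions chosen on the other cohort (-19.6 to -7.48 without 1 animal). For weight loss minus control it was 1.92, and became -25, -12.1 and -8.33 with 5 or more libraries, 25% coverage and an equal number of peaks (-18.4 to 5.56 without 1 animal, the lowest without CC_l replicate 1). For weight loss minus obesity it was 0, the mean of 14.5 and -14.5 in the 12- and 25-week cohorts, and -10.5 to 3.85 without 1 animal. For H3K27ac in obesity minus control it was -4.27, and became 3.33, -10, 0.833 and 3.38 with 5 or more libraries, 25% coverage, the stricter 50% and H3K4me3 of control libraries (-10.4 to -2.19 without 1 animal, the lowest without CCC replicate 3), and for weight loss minus control -14.9 to 6.41 without 1 animal. The H3K4me1 differences against controls stayed negative under every alternative run, at -39.5 to -13.2 for obesity and -38.5 to -20 for weight loss. Apart from regions chosen on the other cohort (-23.8 and -23.9), the alternatives chose members on the same control libraries. A negative value is then built into the rule and says nothing about stability. The cause of the shifts between alternatives was not tested.

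The share of H3K4me1 regions with H3K27me3 in an animal kept its direction for weight loss minus control under all 30 alternatives (1.75 to 3.71 points, adjusted p 0.015 to 0.225). It passed 0.05 with an equal number of peaks (2.34, for obesity minus control 1.9), without CCC replicate 1 (3.26; 2.49 to 3.71 over all animals left out) and with H3K27me3 of other animals of the group (3.53, and 0.96 and 1.76 for obesity minus control and weight loss minus obesity), where animals share H3K27me3 libraries and p is too small. Obesity minus control turned to -0.248 without CC_l replicate 2 and to -0.0883 without HH replicate 2 (-0.248 to 1.78 over all animals left out). The 4 tests across regions gave 0 calls under every alternative, but with smallest possible p-values of 0.005 or 0.01 they could hardly give any, so this says nothing about stability. With the replicate block, the 3 differences were 2.69, 3.71 and 0.854 points for obesity minus control, weight loss minus control and weight loss minus obesity (exact permutation, adjusted p 0.375, 0.188 and 0.875). The block changed no call, and for obesity minus control it allowed no p under 0.25. Correlations of deviations between samples of the same number ran from -0.182 to 0.149, with 3 of 43 over 0.1, so the numbers were not treated as pairs.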

Other observations

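When the same 2 thresholds were applied to the libraries of the diet groups, 214 distal regions had H3K4me1 in 3 or more of 12 and H3K27me3 in 3 or more of 10 libraries. 13 of them were members, which is 6.07% of the 214 and 33.3% of the 39. The 214 regions were 3.91% of the 5471 distal regions with H3K4me1 in 3 or more diet libraries, whereas the members were 0.956% of 4081 in controls. The number of H3K4me1 libraries behind the thresholds differed (12 and 10), and no test was made. 108 of the 214 had H3K4me1 in no control library, and 90 had H3K27me3 in 3 or more control libraries. 40 (18.7%) had H3K27ac in 3 or more diet libraries, beside 29.8% of the 5471 and 1 of the 39 members (2.56%). Their median G and C content was 49.4%, close to the 49.6% of the members.

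By nearest gene, with no test, 9 regions (4.21%) were nearest to developmental transcription factors, among them Irx5, Lhx3 and Runx3, beside 1.97% of the distal regions with H3K4me1 in 3 or more diet libraries. 6 (2.8%, beside 1.75%) were nearest to morphogens and their receptors, among them Wnt11 and Bmp6, and 7 (3.27%, beside 2.01%) to channels, receptors and adhesion genes of neurons. Of the marker lists, 1 region (0.467%) was nearest to an epithelial marker, Pax8. The 0.0183% of the 5471 for this list is that same region, so the 2 shares cannot be compared. None was nearest to a macrophage, lymphocyte or endothelial marker, which were nearest to 0.0914, 0.0183 and 0.165% of the 5471, too few for a 0 to be read. Nav2 was nearest to 5 of them, Rybp, which encodes a Polycomb protein, to 4, and Cntn2 and Col27a1 to 3 each. These counts are not set beside the number of all distal regions nearest to each gene, and nothing is read from them.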
